A study of Neurospora crassa with 12 samples.

Results

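The 6 genes described here took a larger share of the counts in every library labelled *mus-52* of *Neurospora crassa* than in any wild-type library. They were chosen on the measured strain difference itself. In CPM (the count of a gene divided by all counts of its library and scaled up by a fixed factor), the lowest of the 6 libraries labelled *mus-52* had to reach at least 5 CPM and at least 2.5 times the highest of the 6 wild-type libraries. This rule kept 6 of the 9730 genes in the deposited tables, all of which are described. The opposite rule, with the strains exchanged, was met by 59 genes. The difference between the strains is therefore given for the 6 genes as a description, without a test, and only the response to phosphate (Pi) was tested.

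RNA-Seq libraries came from 3 biological replicates (I, II and III) in each of 4 groups. The mutant is a *mat a* strain whose *mus-52* gene is disrupted by *hyg*, and the control was the wild type 74A, a *mat A* strain. Conidia taken from cultures after 6 days had 5 h of germination at 30 °C with 10 mM Pi (high-Pi) or 10 µM Pi (low-Pi), and RNA came from the whole mycelium. Each strain stands for a single genotype, and the strains also differ in mating type, so *mus-52* disruption and mating type cannot be told apart in any strain comparison here.

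MUS-52 is the fungal homologue of Ku80, which forms with its partner Ku70 the ring that binds broken DNA ends for non-homologous end joining. Strains that lack it are used widely in *N. crassa* because introduced DNA then integrates mainly by homologous recombination. The mating type of *N. crassa* is set by the idiomorph at the *mat* locus on chromosome I, and it decides which peptide pheromone a strain makes: *mfa-1* encodes the pheromone precursor of *mat a* strains and *ccg-4* that of *mat A* strains. Germinating conidia assemble ribosomes in the nucleolus, where many factors process the precursor of the ribosomal RNA and enzymes modify uridines to pseudouridine.

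Between 17888120 and 56152963 reads were counted per library labelled *mus-52*, and between 17574263 and 32392814 per wild-type library. A count of 0 would allow up to 3 counts, which is 0.0534 to 0.171 CPM in these libraries and covers counting error only. The disrupted gene *mus-52* (NCU00077) was nevertheless counted at 21.4 to 27.2 CPM in the libraries labelled *mus-52*, against 18.7 to 100.2 CPM in the wild type. The paper reports that it checked the knockout in the mutant strain by qRT-PCR and found it, but these counts do not show it. Every direction between the strains therefore rests on the label, and these libraries are called the libraries labelled *mus-52*. The pheromone gene of the other mating type, *ccg-4* (NCU02500), lay at 0.0417 to 0.503 CPM in them and at 32.6 to 122.9 CPM in the wild type. Wild-type replicate I stood apart in both media: across genes, which are no replicates, Pearson's r of its log2 CPM with replicates II and III was 0.931 to 0.951, against at least 0.988 for all other replicate pairs. The 3 conidiation genes set as markers of conidia (*con-10*, *con-6* and *eas*) had a summed level of 13.5 to 44.3 CPM in the libraries labelled *mus-52* and 6.15 to 10.99 CPM in the wild type, and none was at 0 in any library. Taken singly, each marker overlapped between the strains. The lowest library labelled *mus-52* was 0.671, 0.609 and 0.695 times the highest wild-type library for *con-10*, *con-6* and *eas*. The strain means of these markers differed 3.50-fold, 7.21-fold and 1.46-fold. Their part in the strain difference of the 6 genes was not tested.

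The 6 genes were *mfa-1* (NCU16992), NCU09489, annotated as a phosphoglycerate mutase, NCU09843, a WD repeat protein, NCU06428, a pseudouridine synthase of the TruD/Pus7 family, and NCU04571 and NCU05061, both annotated as hypothetical proteins. In whole mycelium, fewer cells of a type and less RNA per cell cannot be told apart, so all levels are averages over the culture. Over the 6 libraries of each strain, *mfa-1* averaged 183-fold more CPM in the libraries labelled *mus-52* than in the wild type. For the other 5 genes the fold of these means was 11.9 for NCU09489, 9.37 for NCU09843, 6.96 for NCU05061, 6.83 for NCU06428 and 6.27 for NCU04571.

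The pheromone gene *mfa-1* lies on chromosome V of the NC12 assembly, from 3396270 to 3397430. Under the label *mus-52*, replicates I, II and III had 2702, 1561 and 608 CPM in high-Pi and 3020, 1714 and 930 CPM in low-Pi. In the wild type it had 4.41, 5.69 and 18.4 CPM in high-Pi and 7.88, 15.2 and 5.87 CPM in low-Pi. The strains were far apart in both media, and the spread within the libraries labelled *mus-52* was wide, with a coefficient of variation (SD over mean, n = 3) of 64.6% in high-Pi and 55.9% in low-Pi. In both media replicate I was the highest and replicate III the lowest of these libraries. The lowest library labelled *mus-52* was 33.1 times the highest wild-type library, which here was high-Pi replicate III. The mean in the libraries labelled *mus-52* was 171 times that of the wild type in high-Pi and 196 times in low-Pi. Even in the wild type *mfa-1* was not at the counting limit, with 100 to 390 reads per library, against 16634 to 151717 reads in the libraries labelled *mus-52*. It is also the single gene among the 6 that the paper lists as possibly involved in mating type.

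NCU09489 had the largest difference after *mfa-1*. Phosphoglycerate mutases act in glycolysis and gluconeogenesis, but the tables of the paper annotate this protein with phosphatase activity, and no count bears on which is right. NCU09489 had 107, 158 and 130 CPM in the high-Pi libraries labelled *mus-52* (replicates I, II and III) and 111, 126 and 129 CPM in the low-Pi ones. Wild-type libraries had 21.9, 5.23 and 3.63 CPM in high-Pi and 25.5, 3.37 and 4.36 CPM in low-Pi. The libraries labelled *mus-52* were close to each other, while wild-type replicate I was several times above replicates II and III in both media. Wild-type replicate I was 4.94 times the mean of replicates II and III in high-Pi and 6.59 times in low-Pi. The ratio that chose the gene, the lowest library labelled *mus-52* over the highest wild-type library, was 4.21 with all libraries and 20.5 without wild-type replicate I. NCU09489 lies on chromosome II, from 4442223 to 4443601. It shares its last base with NCU11088, which had 0 counts in all 12 libraries. Its neighbour NCU09488, which ends 180 bases before it, averaged 87.8 CPM in the libraries labelled *mus-52* and 22.97 CPM in the wild type, with overlapping strains (ratio 0.996).

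NCU09843 encodes a protein made of WD repeats, which fold into a propeller that binds other proteins. The tables of the paper annotate it to the processome that matures the RNA of the small ribosomal subunit, and it stands here in the list of 40S subunit assembly. Libraries labelled *mus-52* had 39.9, 60.1 and 61.3 CPM in high-Pi replicates I, II and III, and 62.9, 70.3 and 58.6 CPM in low-Pi. The wild type had 8.67, 3.41 and 2.88 CPM in high-Pi and 13.6, 3.78 and 5.35 CPM in low-Pi. As for NCU09489, replicate I was the highest wild-type library in each medium. NCU09843 (chromosome V, 5923952 to 5926233) overlaps the neighbouring kinase gene *mak-1* (NCU09842) by 1160 bases. The sources used here do not say whether strand was used in counting, so reads in this stretch may belong to either gene and the level of NCU09843 is uncertain. *mak-1* itself averaged 270 CPM in the libraries labelled *mus-52* and 191 CPM in the wild type, and its lowest library labelled *mus-52* was 0.599 times its highest wild-type library.

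NCU06428 belongs to the enzymes that turn uridine into pseudouridine. In *Saccharomyces cerevisiae* the related Pus7 modifies tRNA, the U2 small nuclear RNA and messenger RNA. NCU06428 had 32.98, 40.3 and 47.4 CPM in high-Pi replicates I, II and III labelled *mus-52* and 37.8, 45.6 and 39.4 CPM in low-Pi. Its wild-type values were 11.4, 2.39 and 3.40 CPM in high-Pi and 10.2, 4.03 and 4.23 CPM in low-Pi. The highest wild-type library, replicate I in high-Pi, was 3.94 times the mean of replicates II and III. The gene lies on chromosome III, from 1380695 to 1384660, and no annotated gene overlaps it. It is the only one of the 6 on the chromosome of *mus-52*, and their starts are 1.15 Mb apart.

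The last pair, NCU04571 and NCU05061, carries no annotated function. NCU04571 (chromosome V, 1642023 to 1644083) had 59.6, 77.6 and 84.3 CPM in high-Pi replicates I, II and III labelled *mus-52* and 68.4, 75.0 and 75.9 CPM in low-Pi. Its wild-type values were 23.2, 5.06 and 5.90 CPM in high-Pi and 22.8, 6.70 and 6.56 CPM in low-Pi. Replicate I was thus the high wild-type library again, at nearly the same level in both media. NCU05061 (chromosome VI, 3875719 to 3877242) was the least counted of the 6, with 27.2, 32.5 and 28.9 CPM in high-Pi and 22.3, 28.0 and 24.5 CPM in low-Pi under the label *mus-52*. In the wild type it had 7.84, 2.22 and 1.37 CPM in high-Pi and 8.88, 1.36 and 1.81 CPM in low-Pi, which came from 27 to 254 reads per library. The lowest library labelled *mus-52* was 2.57 times the highest wild-type library for NCU04571 and 2.51 times for NCU05061.

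**Figure D1:**
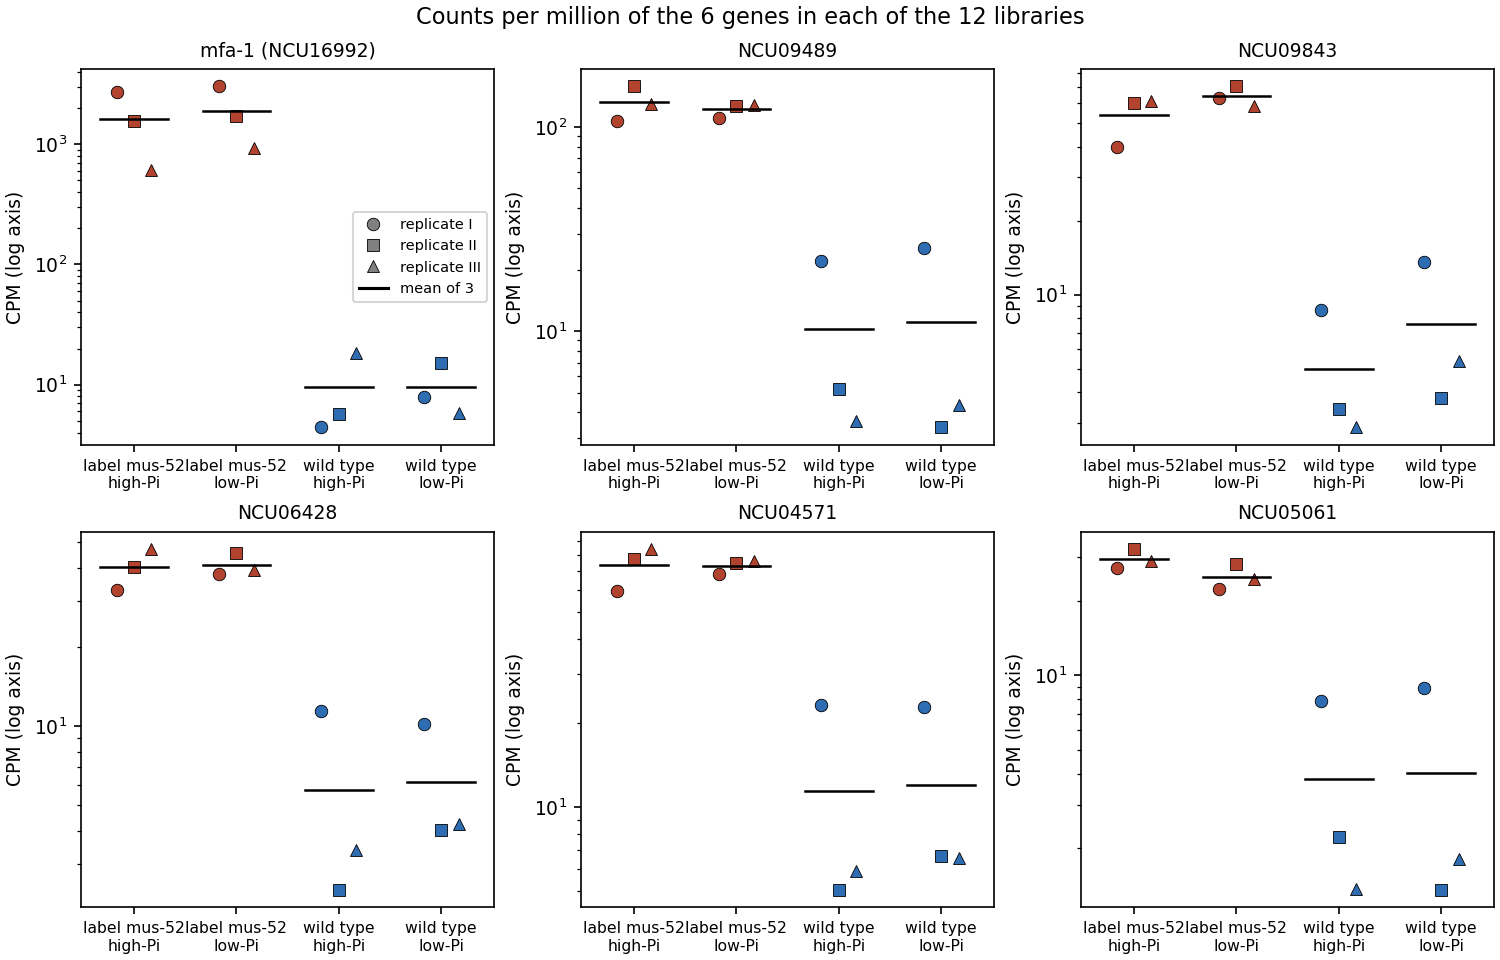
CPM (log axis) of the 6 genes in each library, by strain label and medium, with a symbol for each replicate and a bar for the mean of 3. All libraries labelled *mus-52* lie above all wild-type libraries, which the rule required, and wild-type replicate I (circles) is the highest wild-type library in each medium for the 5 genes other than *mfa-1*, between 7.84 and 25.5 CPM.

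The spread of *mfa-1* differed in form from that of the other 5 genes. Within the libraries labelled *mus-52* the coefficient of variation was 55.9% to 64.6% for *mfa-1* and 5.59% to 22.4% for the other 5 genes. Within the wild type it was 56.95% to 113% for the other 5 genes, where replicate I lay 2.47 to 6.59 times above the mean of replicates II and III. The wild-type coefficient of variation of *mfa-1* was 81.4% in high-Pi and 50.9% in low-Pi, so its size did not set *mfa-1* apart, but wild-type replicate I was 0.366 times that mean in high-Pi and 0.748 times in low-Pi. The median over the 5585 genes with at least 5 CPM in all libraries labelled *mus-52* was 1.48 in high-Pi and 1.00 in low-Pi. The 5 genes were thus above the typical gene in wild-type replicate I of both media, and *mfa-1* was below it. Without wild-type replicate I, the mean in the libraries labelled *mus-52* was 13.5 to 29.7 times the wild-type mean in high-Pi for these 5 genes, and 9.90 to 31.5 times in low-Pi. The same folds of *mfa-1* were 135 and 179.

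Levels were also ranked within each strain over all genes, with or without counts. Divided by annotated gene length, introns included, *mfa-1* had 1512 CPM per kb in the libraries labelled *mus-52* and 8.25 CPM per kb in the wild type, ranks 50 and 4349 of 9729 genes. NCU09489 followed with 91.9 and 7.73 CPM per kb, and NCU04571 with 35.6 and 5.68 CPM per kb. NCU09843, NCU05061 and NCU06428 had 25.8, 17.9 and 10.2 CPM per kb under the label *mus-52*. The same genes had 2.75, 2.57 and 1.498 CPM per kb in the wild type. In the wild type the 6 genes lay above 35.9% to 55.3% of all genes. Under the label *mus-52* they lay above 57.2% to 99.5% of genes. Their order per kb was the same in both strains. Of the 9730 genes in the deposited tables, only 9131 had a count in any library and 7746 passed the filter on low counts. These shares therefore overstate the place of the 6 genes among expressed genes. The wild-type means also include replicate I, the highest wild-type library for the genes other than *mfa-1*.

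The size of the set depended on wild-type replicate I. Among the 5585 genes with at least 5 CPM in all libraries labelled *mus-52*, 842 (15.1%) had every library labelled *mus-52* above every wild-type library, and 6 reached the ratio of 2.5. Without wild-type low-Pi replicate I, 214 genes met the rule. Leaving out wild-type replicate I in both media, an alternative chosen after seeing the data, gave 500 genes, or 8.95% of the 5585. Leaving out a wild-type library can only raise the ratio, so the 6 genes could not be lost. Ordered by ratio, *mfa-1* and NCU09489 were the first and the second of the 500. NCU05061, NCU04571, NCU06428 and NCU09843 were at ranks 32, 52, 77 and 84. Leaving out any other single library gave 6 to 10 genes. Of the genes just outside the threshold, NCU00727 had a ratio of 2.22, the potassium transporter gene *hak-1* (NCU00790) 1.99 and NCU06090 1.96. Just inside it were NCU05061 with 2.51, NCU04571 with 2.57 and NCU06428 with 2.90.

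**Figure D2:**
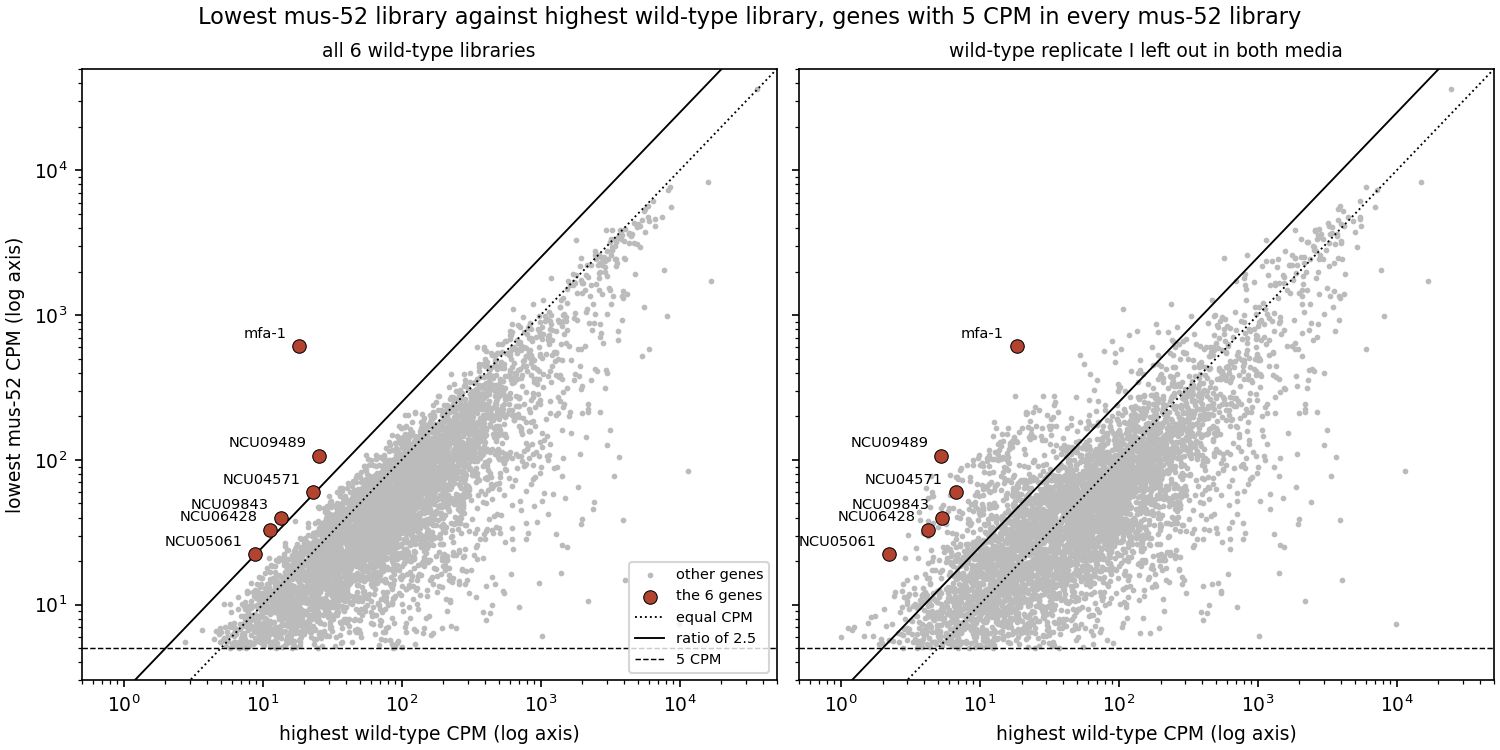
Lowest CPM among the libraries labelled *mus-52* (vertical, log axis) against the highest wild-type CPM (horizontal, log axis) for the 5585 genes with at least 5 CPM in all libraries labelled *mus-52*, with all 6 wild-type libraries (left) and without wild-type replicate I (right). On the left the 6 genes (large points) are the only ones above the line of ratio 2.5, and on the right 500 genes are above it.

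The response of the 6 genes to Pi was not used by the rule and could be tested. With edgeR's quasi-likelihood test and Benjamini-Hochberg adjustment over the 7746 genes tested, all 6 genes passed the filter on low counts, and 0 of 6 were called in either direction in either strain (adjusted p-value of at most 0.05 and log2 fold change of at least 1.5 in size). In the libraries labelled *mus-52*, 0.0258% of the genes tested were called higher and 2.58% lower in high-Pi than in low-Pi. In the wild type the shares were 0.207% higher and 0.0129% lower. Of the 6 genes, 0 had an unadjusted p-value under 0.05 in either strain, and DESeq2 called 0 of 6. With shares of all genes this low, these counts are no result about the 6 genes. Fold changes in the libraries labelled *mus-52* were near 0 on the log2 scale and within their standard errors. They were −0.20 (standard error 0.697) for *mfa-1*, 0.11 (0.690) for NCU09489 and −0.25 (0.425) for NCU09843. For NCU06428, NCU04571 and NCU05061 they were −0.03 (0.437), 0.01 (0.516) and 0.24 (0.615). The adjusted p-values of this edgeR test lay between 0.877 and 0.997.

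In the wild type all 6 fold changes were negative and none passed the test. The largest in size was that of NCU09843, with −0.87 (standard error 0.445, edgeR adjusted p = 0.440). The others were −0.47 for NCU09489, −0.41 for NCU04571, −0.40 for NCU06428 and NCU05061 and −0.08 for *mfa-1*. With single wild-type libraries left out, NCU09843 stayed negative, between −1.29 and −0.09, and 4 of the others turned positive without low-Pi replicate I. Without wild-type low-Pi replicate I the log2 fold change became 1.12 for NCU09489, 1.01 for NCU05061, 0.51 for NCU04571 and 0.22 for NCU06428. Without wild-type high-Pi replicate I it became −1.36, −1.21, −1.15 and −1.09 for the same genes in this order. A fit without the 4 libraries numbered I, added once the values had been seen, gave 0.21, 0.18, −0.23 and −0.46 for those 4 genes, with −0.51 for NCU09843 and 0.27 for *mfa-1*. The value of *mfa-1* turned positive without low-Pi replicate II (0.39), high-Pi replicate I (0.34) or high-Pi replicate II (0.19). Taken as groups, the media overlapped in all 6 genes and in both strains. Between wild-type libraries of the same replicate number, NCU09843 was lower in high-Pi in 3 of 3 pairs, and no other of the 6 genes had the same direction in all 3. With the replicate number as a block the wild-type log2 fold change of NCU09843 was −0.82 and was not called. Under the label *mus-52*, *mfa-1* was lower in high-Pi in 3 of 3 pairs and NCU05061 was higher in 3 of 3. With the block their log2 fold changes under this label were −0.22 and 0.23, and neither was called. The share of all genes with the same direction in 3 of 3 pairs is not given here, so nothing is read from these pairs. In the wild type the replicate numbers are also not shown to pair replicates II and III. The difference between the strains in the response to Pi, tested as an interaction, was called for 0 of 6 genes by edgeR and by DESeq2, and 0 had an unadjusted p-value under 0.05. Of all genes tested, the response was called more positive under the label *mus-52* for 0.142% and more negative for 4.12%. Its log2 values ran from −0.12 for *mfa-1* to 0.64 for NCU05061.

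**Figure D3:**
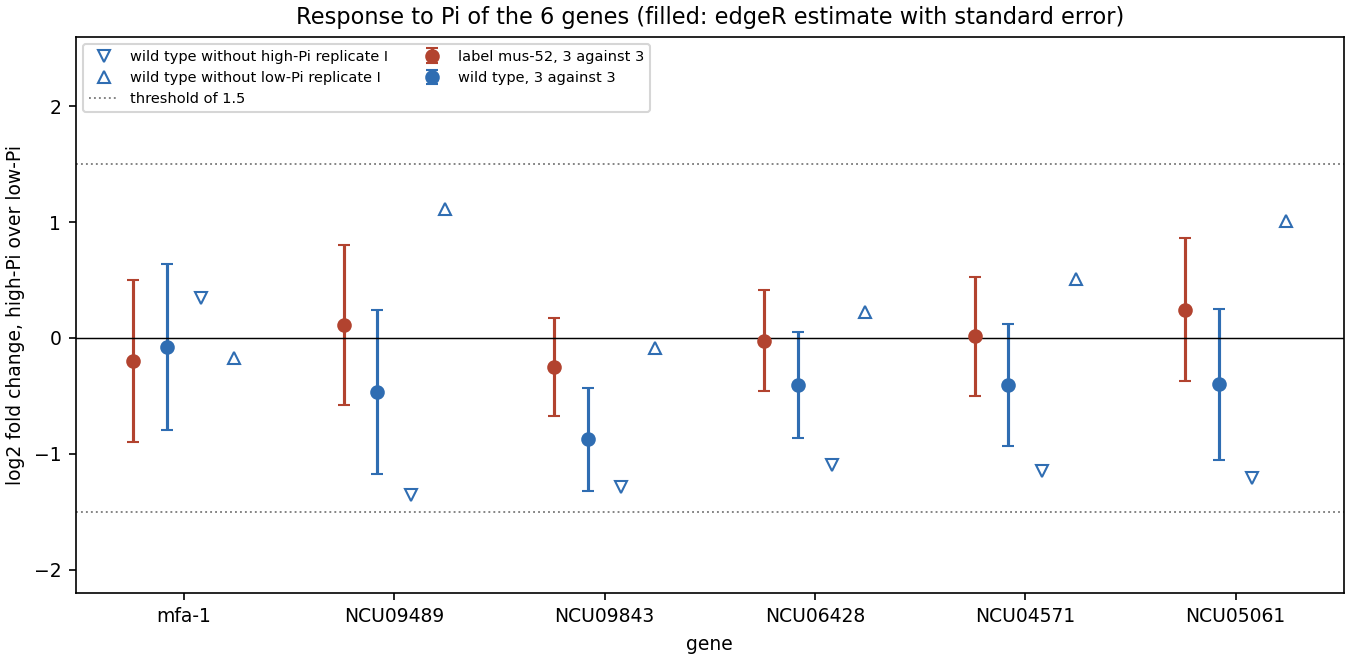
Log2 fold change of high-Pi over low-Pi for the 6 genes in the libraries labelled *mus-52* and in the wild type (filled points, edgeR estimate with its standard error, 3 replicates against 3), and in the wild type without replicate I of either medium (open triangles). No point reaches the threshold of 1.5 in either direction, and for NCU09489 the wild-type value moves between −1.36 and 1.12 with the library left out.

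Between the strains, all 6 genes were past the same thresholds in both media, which their choice made likely, beside 7.35% of all genes tested called higher under the label *mus-52* in high-Pi and 5.84% in low-Pi. Nothing is read from this count, since the rule used that contrast.

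The lists of ribosome assembly and tRNA modification each held a member. These lists came from product names and annotations in the tables of the paper, most of which the study chose on these samples, so their direction is not independent evidence. Of 31 genes of 40S subunit assembly, the making of the small ribosomal subunit, 29 had all libraries labelled *mus-52* above all wild-type libraries, against 15.1% of the 5585 genes. Their median ratio of the lowest library labelled *mus-52* to the highest wild-type library was 1.29, against 0.608 over the 5585 genes. NCU09843 had the largest ratio of the list (2.94), followed by the helicase gene *rok-1* (NCU00919) with 1.78. Without wild-type replicate I all 31 genes reached the ratio of 2.5, with a median of 8.36, and NCU09843 was then below this median with 7.45. In wild-type replicate I the median gene of the list was 1.83 times the mean of replicates II and III in high-Pi and 8.19 times in low-Pi, and for NCU09843 the values were 2.76 and 2.97.

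The 8 genes of tRNA modification gave a like picture. All libraries labelled *mus-52* were above all wild-type libraries in 6 of them, with a median ratio of 1.10, and NCU06428 had the largest at 2.90. Without wild-type replicate I all 8 reached the ratio of 2.5 with a median of 5.49, and NCU06428 was at 7.80. In low-Pi, wild-type replicate I was 6.48 times the mean of replicates II and III for the median gene of this list and 2.47 times for NCU06428. In the strain comparison 8 of the 8 genes were called higher under the label *mus-52* in high-Pi, beside 7.35% of all genes tested, and 1 of 8, which is NCU06428 itself, in low-Pi, beside 5.84%. Of the 40S list, 31 of 31 were called higher in high-Pi and 15 of 31 in low-Pi, beside the same shares. For Pi, edgeR and DESeq2 called 0 genes of either list in either strain. At an unadjusted p-value under 0.05 edgeR gave 0 genes of both lists in the libraries labelled *mus-52*, and 21 of the 40S list and 4 of tRNA modification in the wild type. The share of all genes at this p-value alone is not given here, so nothing is read from these counts. The median log2 fold change of high-Pi over low-Pi was −0.11 for the 40S list and 0.04 for tRNA modification in the libraries labelled *mus-52*. In the wild type these medians were −1.63 and −1.25, against −0.05 over all genes tested. Both include wild-type low-Pi replicate I. For the median gene it was 8.19 times (40S) and 6.48 times (tRNA modification) the mean of replicates II and III. In high-Pi these values were 1.83 and 1.62. List medians without that library are not given here, so no response of the wild type to Pi is read from them.

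Other lists of ribosome assembly had no member of the 6. All 30 genes of 60S subunit assembly reached the ratio of 2.5 without wild-type replicate I and none did with it. The same was true of the 7 proteins of the box C/D and H/ACA particles, which guide the modification of ribosomal RNA, and of 4 subunits of RNA polymerases I and III. The 6 cytoplasmic ribosomal proteins named by symbol did not reach it either way, with median ratios of 0.910 and 1.27. Lists outside ribosome assembly came from the same tables of the paper, so their direction is not independent evidence either. With all libraries 0 genes reached the ratio of 2.5 in the lists of DNA replication, of hypusine, diphthamide and polyamine synthesis, of mitochondrial gene expression, of nucleotide synthesis and of DNA repair. Without wild-type replicate I, 7 of 7, 6 of 6, 8 of 13, 4 of 6 and 4 of 7 genes of these lists reached it, beside 8.95% of the 5585 genes.

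Genes that the paper lists as possibly involved in mating type were called in both directions between the strains. The paper made this list to exclude such genes from its own calls on these samples. The shares of the list below are therefore not independent evidence. Of 184 genes, 57 were called higher and 91 lower under the label *mus-52* in high-Pi, and 46 higher and 71 lower in low-Pi. Of all genes tested, 7.35% were called higher and 11.7% lower in high-Pi, and 5.84% higher and 7.51% lower in low-Pi. At least 5 CPM in all libraries labelled *mus-52* was reached by 155 of them, with a median ratio of 0.207, and *mfa-1* alone reached the ratio of 2.5. Without wild-type replicate I 54 of the 155 reached it (34.8%), beside 8.95% of the 5585 genes. The list shares genes with the lists of ribosome assembly, *rok-1* among them, so these counts partly repeat those of the other lists. None of the 25 genes at this level with the MAT1-1-1 motif of the paper reached it with all libraries, and 3 did without wild-type replicate I.

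**Figure D4:**
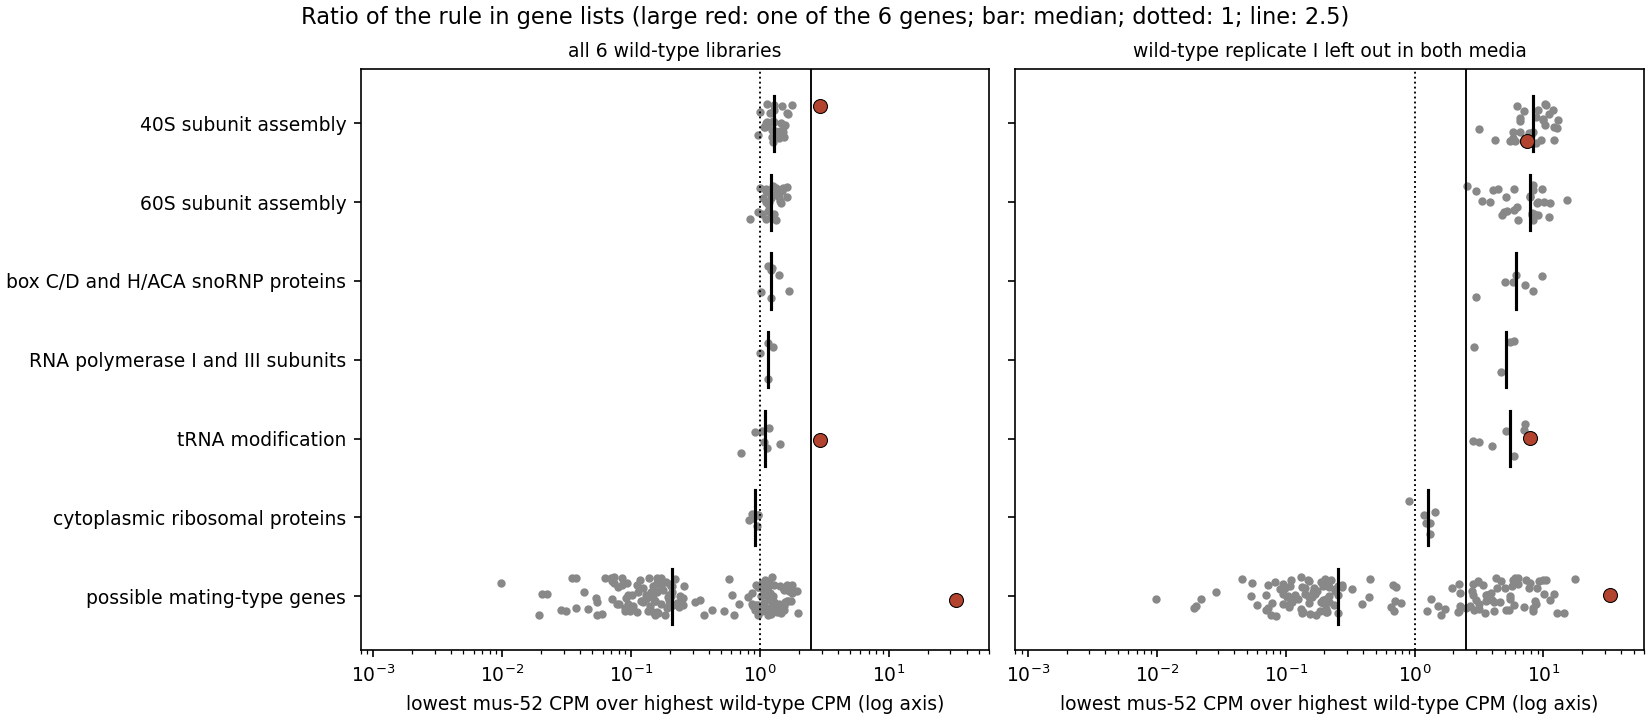
Lowest CPM among the libraries labelled *mus-52* over the highest wild-type CPM (log axis) for the genes of 7 lists with at least 5 CPM in all libraries labelled *mus-52*, with all wild-type libraries (left) and without wild-type replicate I (right). Large red points are members of the 6 genes and bars are medians. The median of 40S subunit assembly is 1.29 on the left and 8.36 on the right, while *mfa-1* stays at 33.1.

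The 6 genes shared no position. Chromosome V held 3 of them, where 16.2% of all genes lie, and chromosomes II, III and VI held 1 each. None was on chromosome I, which carries the *mat* locus and 24.1% of all genes. No pair of the 6 was among the 2 nearest genes on either side of each other. Their median annotated length was 1793 bases, against 2129 for all genes, and each has 1 annotated transcript, as 90.8% of genes do. Next to *mfa-1*, NCU01257 ended 672 bases before it and averaged 245 CPM in the libraries labelled *mus-52* and 59.4 CPM in the wild type. The strains overlapped for NCU01257 (ratio 0.952). NCU05062, which ends 1027 bases before NCU05061, averaged 50.6 and 18.4 CPM, and its lowest library labelled *mus-52* was 1.36 times its highest wild-type library. The gene 333 bases after NCU04571, NCU04570, averaged 29.6 CPM in the libraries labelled *mus-52* and 34.2 CPM in the wild type.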

How the data were processed

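RNA-Seq libraries of 12 samples were analysed (2 strains, 2 media, 3 replicates each). Per the labels and the methods of the study, reads were checked with FastQC (0.11.2), trimmed and mapped with Bowtie2 (2.1.0) to NC12, and the authors deposited raw counts per gene. The counting tool and its use of strand are not given in the sources used here. The deposited DESeq tables (DESeq 1.28.0) hold the authors' own comparisons and were not used.

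CPM were counts over the column total. The members and lists were chosen with earlier results of these data known. Named genes were all members, the 3 just outside the threshold, *mus-52*, the markers and the leading genes of lists; the neighbours and *rok-1* were named after their values were seen. Counts were fitted in edgeR 4.0.16 (R 4.3.3, TMM factors, filterByExpr, 4 groups in a single fit). The fit was tried on simulated counts with a common dispersion (0.08675), no outlying library and changes only in high-Pi under the label *mus-52*. It called 50 of 50 genes changed 16-fold and 5 of 50 changed 2-fold, a change below the fold threshold. The simulation does not bear on the spread of wild-type replicate I. Calls needed a Benjamini-Hochberg adjusted p-value up to 0.05 together with a log2 fold change of 1.5 or more in size, as in the study. Gene names and positions came from the RefSeq table of NC12, which matched 9729 of 9730 IDs. Alternatives included DESeq2 1.42.0, RLE factors, other filters, a replicate block and each library left out. Deviations from the group means correlated between libraries of the same replicate number at 0.357, 0.210 and 0.337 in the wild type. In the libraries labelled *mus-52* these values were 0.290, 0.0945 and 0.133. Wild-type high-Pi replicate III also correlated with low-Pi replicate II at 0.286, and high-Pi replicate II with low-Pi replicate III at 0.173. The wild-type values thus set replicate I apart but do not show that the numbers pair replicates II and III. Promoter and protein sequences were not analysed here.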

Additional observations from a re-analysis of the deposited data

How the results depend on the processing

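The number of genes meeting the rule was 6 to 214 with single libraries left out. It was 214 without wild-type low-Pi replicate I and 10 without wild-type high-Pi replicate I. It was 500 without both, an alternative chosen after seeing the data, and 543 without replicate number I in all 4 groups. A ratio of 3 left 2 genes, *mfa-1* and NCU09489, and TMM-scaled CPM left 4, without NCU04571 and NCU05061.

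None of the 6 genes was called for Pi or the interaction under any of the 20 or 21 alternatives. Of 372 such log2 values, 35 had another sign than the main value, and the cause was not tested. Adjusted p alone and leaving out the possible mating-type genes reuse the main fit, so their log2 values could not differ. Counts over all genes moved more. Genes higher in high-Pi under the label *mus-52* (2) became 17 by adjusted p alone, 1 with at least 10 counts in every library, 9 in the 6 libraries alone, 8 without replicate number I, 7 with DESeq2 and 0 to 5 with a library left out. At 0, an unadjusted p-value under 0.05 past the fold threshold was left for 10 to 17. Genes lower (200) became 348 by adjusted p alone and 64 to 232 with a library left out.

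In the wild type, genes higher (16) became 34 by adjusted p alone, 34 without replicate number I, 52 with DESeq2, 0 in the 6 libraries alone and 4 to 25 with a library left out. Genes lower (1) became 3, 24, 6, 0 and 0 to 3 in the same order. At 0, 59 genes higher and 8 to 157 lower had an unadjusted p-value under 0.05 past the fold threshold. For the interaction, genes higher (11) became 52, 42 and 30 by adjusted p alone, without replicate number I and with DESeq2, and 1 to 26 with a library left out. Genes lower (319) fell to 185 to 309 under some alternatives, while adjusted p alone cannot lower their number. With the replicate block the wild type had 11 genes higher, and the block changed no call of the 6 genes. The promoter motifs could not be searched.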
